A study of Rattus norvegicus with 6 samples.

Results

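A lone interval is the single stretch of N6-methyladenosine (m6A) signal listed for its gene, on sequence that no other listed gene shares. The authors' deposited list assigned 29268 distinct m6A intervals to 13146 Ensembl gene IDs, and 5199 of those IDs held 1 row. Members were selected on the number of rows per gene, on sharing and on width: they are the intervals of these one-row genes that were listed under no other ID and whose width was an exact multiple of 25 bp and at most 1000 bp. The rule found 3216 intervals, 1 for each of 3216 gene IDs. They made up 10.99% of the distinct intervals and 24.5% of the gene IDs. They were set against 18119 intervals that met the same width and sharing limits in 6833 gene IDs with 2 or more rows, here called the compared intervals.

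The list came from methylated RNA immunoprecipitation sequencing (MeRIP-seq), in which RNA fragments are pulled down with an anti-m6A antibody. It was made from penile tissue of male Sprague-Dawley rat fetuses taken by cesarean section on GD19.5 (GD, gestational day). Titles name a case group (3 samples) and a control group (3 samples). In the series' design text, the affected fetuses had hypospadias, in which the urethra opens on the underside of the penis, and their dams were gavaged daily from gestational day 12 to 19 with di-(2-ethylhexyl) phthalate (DEHP), a softener of plastics that lowers androgen action in the fetal male rat. The counterparts there are normal male fetuses, with corn oil alone as the vehicle given to control dams over the same days. No dose is given in the sources used here, nor whether a sample is 1 fetus or a pool. The list has 5 columns (chromosome, start, end, gene ID and gene strand) and 0 columns of values per sample, so case and control were not compared for any interval, and the depth behind an interval is unknown. No defining marker of the tissue could be checked, because the IDs could not be paired with symbols.

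As background, m6A is laid down on nascent messenger RNA by a methyltransferase complex built on METTL3 and METTL14. Reader proteins of the YTH family bind it and alter the stability and translation of the transcript. In mammals the mark is concentrated in long internal exons and around stop codons and the start of the 3' untranslated region, and it is sparse in short internal exons close to splice junctions. A peak caller that tiles exonic sequence in fixed steps returns widths that are whole multiples of the step when a stretch lies in 1 exon. A width off the step is what an intron inside the stretch would give. This reading of the 25-bp step was not checked against exons, and no exon, intron or untranslated region was assigned.

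Of the 5199 one-row genes, 800 had an interval shared with another gene ID, 1119 had an unshared interval whose width was not a multiple of 25 bp, and 64 had an unshared interval of whole steps wider than 1000 bp. The 3216 members were thus 61.9% of one-row genes. Of the 26800 rows of genes with 2 or more rows, 67.6% met the same limits. The difference lay mostly in widths off the 25-bp step, which made up 25.4% of unshared rows in one-row genes and 16.8% in the other genes. These off-step intervals were long, with medians of 1499 bp in one-row genes and 2037 bp in the other genes. These counts describe the selection itself. At the upper limit, 6 one-row genes had an interval of 975 bp and 3 had one of 1000 bp, while just outside 2 had one of 1025 bp and 5 had one of 1050 bp.

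Under the width limits of the rule, lone intervals were shorter than the compared intervals taken as a whole. Their median width was 7 steps of 25 bp (quartiles 125 and 325 bp). For the compared intervals it was 9 steps, or 225 bp (quartiles 125 and 350 bp), a difference of -50 bp. Before the width limits, unshared intervals had medians of 250 bp in one-row genes and 263.5 bp in the other genes. The size of the difference thus depends on these limits. The mean was 248 bp in lone intervals and 269 bp in compared intervals, with SDs between intervals of 180 and 192 bp. The 2 distributions overlapped widely, and the shift was small beside the spread between intervals. Widths come in steps of 25 bp and 50.8% of lone intervals were at most 7 steps wide, so their median lies at the edge of a step. The difference in medians was -25 bp with no upper limit on width, and also with widths of any step kept. All shares below carry 95% Wilson intervals where given, which cover counting error only, since intervals of 1 list are neither independent nor replicates of a condition. No test was run between the lone and the compared intervals.

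The shift did not come from the narrowest intervals. Widths of 50 bp, the smallest listed, made up 7.15% of lone intervals (230 intervals, Wilson interval 6.31 to 8.09) and 9.45% of compared intervals (9.04 to 9.89). It lay in the class from 75 to 150 bp, which held 27.7% of lone intervals (26.2 to 29.2) and 21.3% of compared intervals (20.7 to 21.9). Lone intervals thus had fewer of the smallest widths and more of the next sizes up. The most frequent width of the whole list, 7 steps of 25 bp and here called the 7-step width, held 513 lone intervals, 16.0% (14.7 to 17.3), against 12.9% of compared intervals (12.4 to 13.4). It stood above its neighbours in both, at 2.49 times the mean count of the 150 and 200 bp widths in lone intervals and 2.41 times in compared intervals. Widths from 200 to 500 bp made up 40.1% of lone and 44.7% of compared intervals. Widths over 500 bp made up 9.08% of lone intervals (8.13 to 10.1) and 11.6% of compared intervals (11.2 to 12.1).

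**Figure D1:**
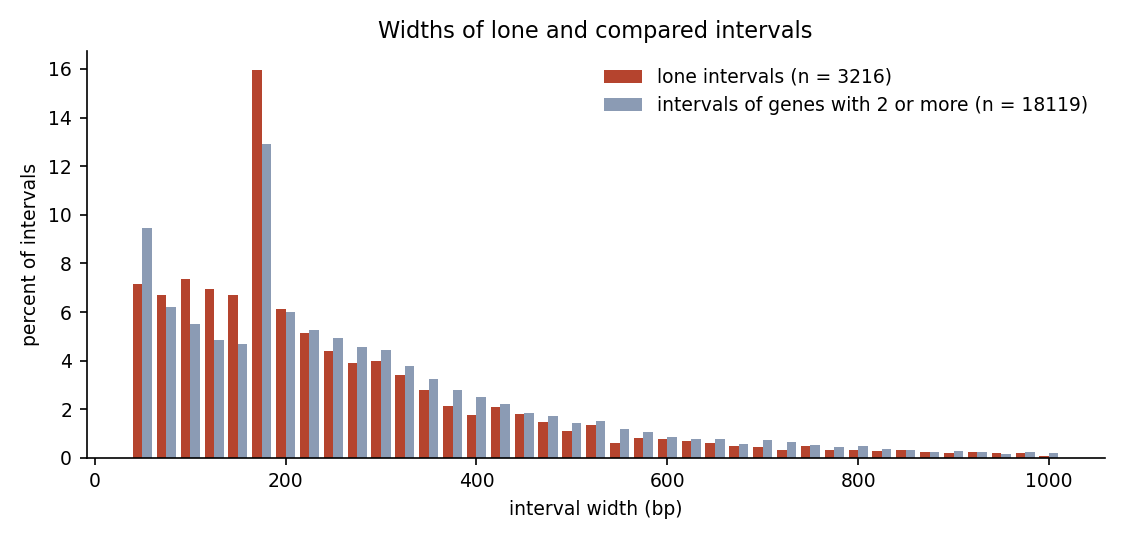
Percent of intervals at each width in bp, for the 3216 lone intervals (left bar of each pair) and the 18119 compared intervals (right bar). Lone intervals exceed the others most at the 7-step width (16.0% against 12.9%). They fall short of them at 50 bp (7.15% against 9.45%, nearby intervals not joined) and over 500 bp.

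These differences kept their direction on most autosomes taken singly. With nearby intervals not joined, the share of 50 bp widths was lower in lone than in compared intervals on 19 of 20 autosomes. The exception was chromosome 19, where the shares were 7.84% and 7.68%. The share of widths over 500 bp was lower on 18 of 20, all but chromosomes 6 and 9. The share of 7-step widths was higher on 17 of 20, all but chromosomes 16, 19 and 20. Chromosome 20 went furthest the other way, with 10.3% of its 78 lone intervals at the 7-step width against 16.7% of its compared intervals. The median width was lower in lone intervals on 16 autosomes, equal on 3 and higher on chromosome 18 only, at 250 bp against 225 bp. The single chromosomes hold between 78 and 368 lone intervals, which limits each of these values.

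In the 50 bp and 75 to 150 bp shares, genes with 2 intervals lay between the lone intervals and genes with more. The share of widths from 75 to 150 bp was 27.7% for lone intervals, 23.9% in two-row genes and 20.7% in three-row genes, and ran from 15.9% to 21.8% in the classes above that. With nearby intervals not joined, the 50 bp share was 7.15% for lone intervals, 8.42% in two-row genes and 9.52% in three-row genes. It stayed between 9.48% and 10.6% beyond. The share of 7-step widths was 16.0% for lone intervals and from 11.4% to 14.0% in every other class, with two-row genes inside that range at 13.5%. Widths over 500 bp made up 9.08% of lone intervals and from 10.97% to 13.2% elsewhere, with two-row genes again inside the range at 11.7%. Mean width was 248 bp for lone intervals, 264 bp in two-row genes and 271 bp in three-row genes. From 4 intervals per gene upward it ran between 265 and 286 bp in no steady order. The step from 1 to 2 intervals was thus at least as large as those between most later classes in the 75 to 150 bp and 7-step shares.

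**Figure D2:**
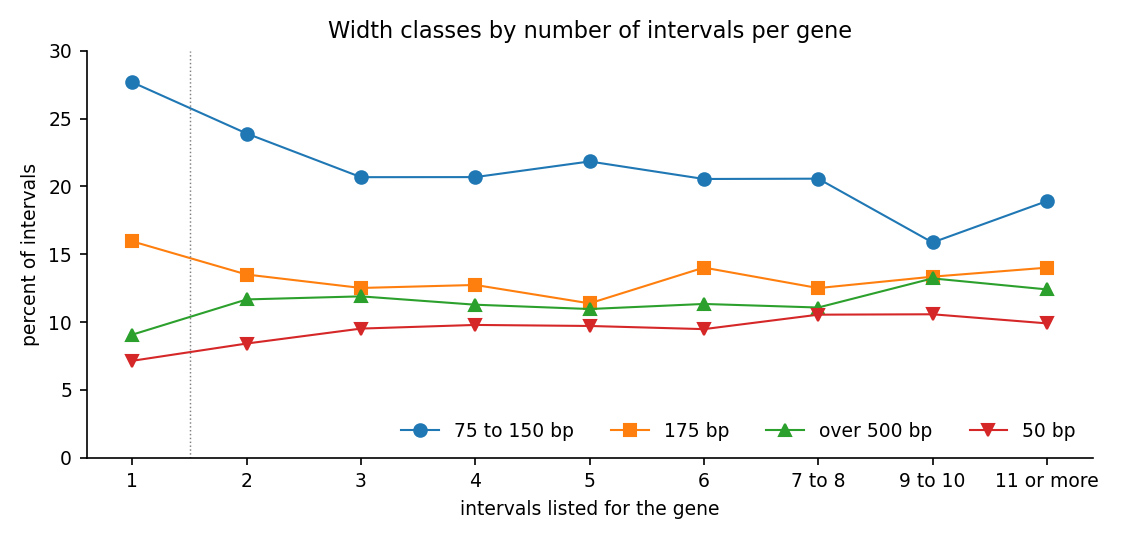
Percent of intervals in 4 width classes (lines) by the number of intervals listed for the gene (horizontal axis), with the lone intervals at the left of the dotted line. The 75 to 150 bp class stands at 27.7% for lone intervals and 23.9% in two-row genes, and the 50 bp class at 7.15% and 8.42%.

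The compared intervals fall into 3 kinds by place in their gene, and lone intervals matched no single kind in every measure. Of the compared intervals, 4966 were the 5'-most of their gene, 7596 lay in the interior and 5557 were the 3'-most. In medium-short widths the lone intervals stood near the 5'-most ones: 75 to 150 bp made up 27.7% of lone intervals, 27.4% of 5'-most, 18.9% of interior and 19.1% of 3'-most intervals. The median width was likewise 7 steps for lone and for 5'-most intervals, against 9 steps (225 bp) for interior and 10 steps (250 bp) for 3'-most intervals. By the mean, lone intervals (248 bp) were wider than 5'-most ones (233 bp) and narrower than interior (275 bp) and 3'-most ones (292 bp). In the narrowest widths they stood near the 3'-most ones, with 50 bp in 7.15% of lone intervals, 11.01% of 5'-most, 10.4% of interior and 6.75% of 3'-most intervals. Widths over 500 bp made up 9.08% of lone, 8.22% of 5'-most, 12.1% of interior and 13.9% of 3'-most intervals. The 7-step share of 16.0% in lone intervals was above that of all 3 kinds, which were 14.4%, 12.3% and 12.4% in the same order. A median over compared genes of the widest eligible interval was 350 bp and of the narrowest 150 bp, so the lone median of 7 steps lay near the narrow end of what a gene with several intervals holds. Genes with more intervals have wider extremes by their number alone, so these 2 medians are given only as a scale.

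Lone intervals also lay closer to the signal of other genes. The nearest interval that was not listed under the same gene was a median of 28.2 kb from a lone interval (quartiles 9.11 and 78.2 kb). From a compared interval it was 35.6 kb (quartiles 13.1 and 92.7 kb), measured edge to edge on either strand. Neighbours were taken in order of start position. A wide interval that started earlier than the neighbour taken but ended closer was therefore missed, a limit of all distances below. The median was lower for lone intervals on 20 of 20 autosomes, from 16.7 kb on chromosome 10 to 49.8 kb on chromosome 17. On X it was higher, at 80.3 kb for the 118 lone intervals against 67.2 kb for compared intervals. A distance of up to 10 kb was found for 27.0% of lone intervals (25.5 to 28.6) and 19.6% of compared intervals (19.03 to 20.2).

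The distance depended on which intervals stood for the other genes. It was 28.9 kb for 3'-most intervals, 36.1 kb for 5'-most and 40.5 kb for interior intervals. Against genes with exactly 2 intervals the order of the medians turned round, with 28.2 kb for lone intervals and 27.8 kb for intervals of two-row genes. The median then grew to 30.2 kb in three-row genes and 36.2 kb in four-row genes. The larger distance over all compared intervals holds against genes of 3 or more intervals and against 5'-most and interior intervals, and not against the 3'-most ones or two-row genes.

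**Figure D3:**
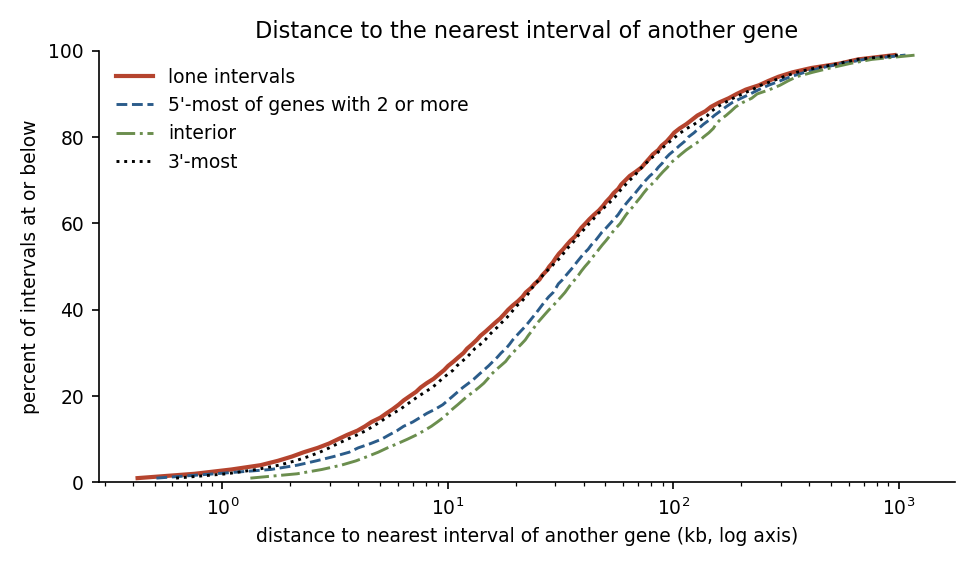
Cumulative percent of intervals (vertical axis) by distance in kb to the nearest interval of another gene (log axis), for lone intervals and for the 5'-most, interior and 3'-most compared intervals. The curves of lone (median 28.2 kb) and 3'-most intervals (28.9 kb) run together, left of those of 5'-most (36.1 kb) and interior intervals (40.5 kb).

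The neighbouring interval lay on the 3' side of the lone interval in 1913 of 3216 cases, 59.5%, against 60.8% of compared intervals. Where the neighbour lay within 10 kb, that share was 69.0% for lone and 68.8% for compared intervals. Most of it came from downstream neighbours on the opposite strand. These made up 44.4% of the 868 lone intervals and 45.0% of the 3552 compared intervals within that distance. Upstream neighbours on the opposite strand made up 12.3% of lone and 13.3% of compared intervals there. The list gives no gene ends, so whether such genes lie end to end or overlap is not known. At this distance the 2 sets differed by about a percentage point or less in these shares. Plus-strand genes held 49.1% of lone intervals (47.4 to 50.8) and 50.2% of compared intervals. The nearest neighbour belonged to another one-row gene for 41.0% of lone and 36.3% of compared intervals.

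A small set of lone intervals lay within 1 kb of another gene's interval. There were 89, or 2.77% (2.25 to 3.39), against 1.39% of compared intervals (1.23 to 1.57). Their widths gathered at the 7-step width, which 24 of the 89 had, 27.0% (18.8 to 37.0), against 13.1% of the 252 compared intervals as close (9.48 to 17.8). Without the mitochondrial genome these were 22 of 84 lone intervals, 26.2%, against 13.2% of compared intervals. The share did not change steadily with distance. Of lone intervals it was 13.5% at 1 to 10 kb, 16.6% at 10 to 100 kb and 15.5% over 100 kb. For 30 of the 89 the neighbour belonged to another one-row gene, so both intervals of a pair can be among them. The neighbour was on the opposite strand for 58 of the 89, 65.2%, against 70.6% of the 252 compared intervals. It was on the same strand for 29, 32.6%, against 27.4%, and for the other 2 it was shared by genes of both strands. A downstream neighbour on the same strand was found for 18 of the 89, 20.2%, against 13.1% of compared intervals. Within 200 bp the neighbour lay upstream for 10 of 14 lone and 10 of 23 compared intervals. Only 2 of the 89 started a whole multiple of 25 bp from the start of that neighbour, 2.25% (0.618 to 7.83), where chance gives 4%. In compared intervals it was 12 of 252, 4.76% (2.74 to 8.14). Both intervals include the chance value. With intervals listed under several gene IDs kept on both sides, the shares were 14.7% of lone and 20.4% of compared intervals. In that setting the neighbour of a shared interval can belong to a gene that lists the shared interval too. These 2 shares therefore do not measure a common grid between separate genes.

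The closest pair was ENSRNOG00000063463 on the plus strand of chromosome 5, with a lone interval of 200 bp (136081970 to 136082169) that began 11 bp from an upstream interval of a two-row gene on the same strand. The next was ENSRNOG00000019509 on the plus strand of chromosome 1, with an interval of 225 bp (245191782 to 245192006), 81 bp from a downstream interval of another one-row gene on the minus strand. The lone interval farthest from any other gene's signal was that of ENSRNOG00000057826 on the plus strand of the X chromosome (92649105 to 92649279). It was 7 steps wide and lay 4124 kb from the next interval. The widest members measured 1000 bp, and there were 3 of them, all on minus-strand genes. The most isolated of these was that of ENSRNOG00000023337 on chromosome 4 (21290232 to 21291231), 463 kb from its neighbour. The other 2 lay on chromosome 10, 72.5 and 37.0 kb from theirs. Positions are those of the file, counted from 1, and the build behind them is unsettled.

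X carried a larger share of lone intervals than any autosome. Of the 608 eligible intervals on X, 118 were lone, or 19.4% (16.5 to 22.7). Over all autosomes the share was 14.9%, and single autosomes averaged 15.0% with an SD of 1.62 (n = 20), from 12.4% on chromosome 18 to 17.6% on chromosome 14. As a share of listed gene IDs, members were 28.5% on X and from 20.6% to 29.1% on the autosomes, so X lay inside the autosomal range by that measure. Against two-row genes alone, the lone share was 42.6% on X and 41.5% on the autosomes, a difference of 1.13 percentage points in place of 4.48. On X, 50 bp intervals were more common among lone than compared intervals, at 10.2% against 7.55%. Widths over 500 bp made up 3.39% of lone and 6.94% of compared intervals on X, both below the lowest autosome (6.02% for lone and 9.75% for compared intervals).

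**Figure D4:**
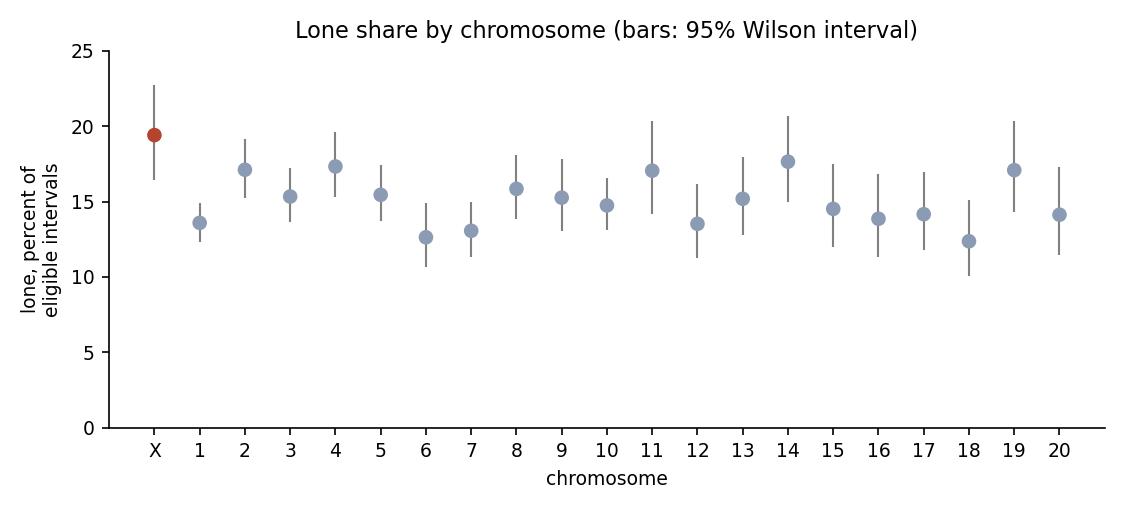
Lone intervals as a percent of eligible (lone plus compared) intervals on X and each autosome, with 95% Wilson intervals as bars. X stands at 19.4%, and the autosomes run from 12.4% (chromosome 18) to 17.6% (chromosome 14).

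The smallest chromosomes are given one by one. On the mitochondrial genome, whose short intronless genes lie end to end, 6 of 9 eligible intervals were lone, all of plus-strand genes. They ran from 2740 to 3114, 7006 to 7280, 8658 to 8832, 9501 to 9675, 11811 to 11935 and 14161 to 14335, so that 3 of them had the 7-step width. Their distances to the next gene's interval ran from 273 to 2225 bp. The Y chromosome had 1 lone interval among 8 eligible ones, of the 7-step width, from 671927 to 672101 in a minus-strand gene.

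Along the nuclear chromosomes, members were spread thinly. Of 2054 windows of 1 Mb with any eligible interval, 1419 (69.1%) held a lone one, with a median of 2 in those windows. A single lone interval was found in 672 windows, and 156 held 5 or more. The fullest windows had 12 each. One lay at 196 to 197 Mb of chromosome 1, where lone intervals were 12 of 28 eligible ones among 27 listed genes. The other lay at 8 to 9 Mb of chromosome 7, an interval-dense stretch, where they were 12 of 70 among 44 listed genes. With listed genes put in order by their first interval, 1587 members stood next to another member, in 659 runs. The other members stood alone, in 1623 runs of 1. Members were 24.5% of the listed gene IDs, so many would stand together in any order. No expected number was computed, and clustering was not tested. The longest run was 7 genes on X, whose lone intervals spanned 6704 kb from 120502123 to 127205997.

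Gene IDs with high numbers were more frequent among members than among the compared gene IDs, but close to their share of the whole list. Ensembl numbers its IDs in the order in which gene models are added, so a high number stands for a later model, and later models often include noncoding and less well studied genes. Numbers over 60000 were carried by 438 members, 13.6% (12.5 to 14.8), against 664 of the 6833 compared gene IDs, 9.72% (9.04 to 10.4). Among all listed IDs the share was 12.9%. Before the width and sharing limits it was 15.0% in one-row genes. It ran from 9.94% to 14.0% in the classes of 2 to 8 rows. In genes with 9 to 10 rows it was 16.8%, and in those with 11 or more 16.5%, so a high share was not particular to one-row genes. The share was higher in lone genes on 20 of 20 autosomes, by the least on chromosome 1 (11.4% against 11.3%). On X it was lower, at 16.1% of lone against 20.4% of compared gene IDs. Of all listed IDs over 60000, 45.7% were one-row genes, against 37.8% of IDs up to 30000. Those one-row genes shared their interval with another ID in 28.5% of cases, against 11.8% for IDs up to 30000, so that members were 25.7% and 24.1% of the listed IDs in the 2 classes.

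Lone intervals of these late gene models were narrow. Their mean width was 206 bp (SD 150, n = 438), against 243 bp (SD 175.2, n = 595) for IDs above 30000 and up to 60000 and 257 bp (SD 185, n = 2183) for IDs up to 30000. Among compared intervals the same 3 means were 254, 268 and 271 bp. The 7-step width made up 103 of the 438, 23.5% (19.8 to 27.7), against 15.4% of compared intervals of IDs over 60000 (13.9 to 17.1). For IDs up to 30000 the 7-step share was 14.4% of lone (13.0 to 15.9) and 12.4% of compared intervals (11.8 to 13.0). Widths over 500 bp made up 5.02% of lone intervals of late models, against 9.93% of their compared intervals. The 50 bp share was 6.62% of lone and 8.99% of compared intervals in late models, close to the 7.19% and 9.47% of IDs up to 30000. With IDs over 60000 left out of both sides, the 7-step share was 14.8% in lone and 12.6% in compared intervals and the median width was 200 and 225 bp, so the difference in width was not limited to late models.

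**Figure D5:**
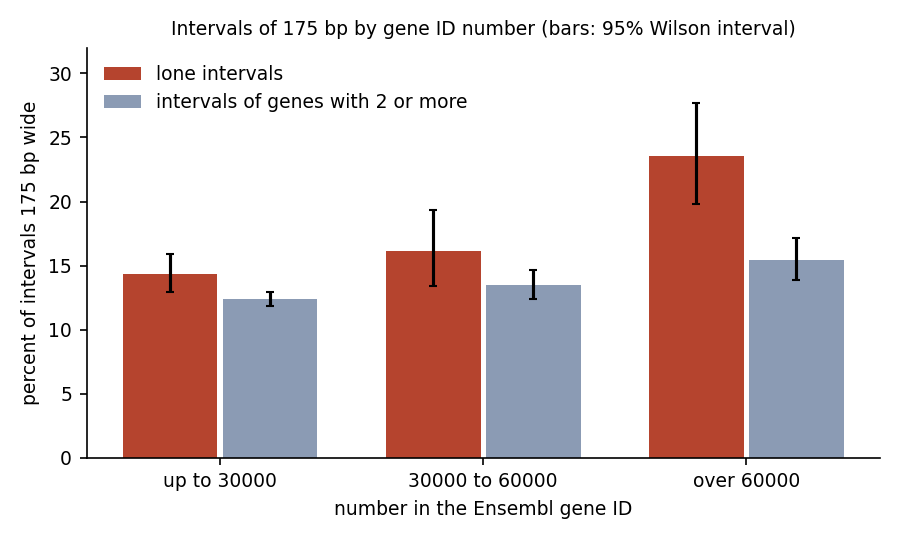
Percent of intervals that are 7 steps of 25 bp wide in lone (left bar of each pair) and compared intervals (right bar), by the number in the Ensembl gene ID, with 95% Wilson intervals. Lone intervals of IDs over 60000 stand highest, at 23.5% against 15.4% for their compared intervals.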

How the data were processed

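The deposited table is a list of genomic positions with the unit bp (start, end), per the file headers, and holds no signal, p-value or count. The submitters' processing notes name HISAT2 and the build Rnor_6.0. Peak caller, threshold, annotation and any pooling of samples are not stated in those notes or in the file. The highest positions on several chromosomes lie close to the ends of the later assembly mRatBN7.2, so the build is unsettled and no sequence is shown. File starts count from 0, printed ones from 1. The RefSeq table (GRCr8) holds 0 entries with an Ensembl ID, so no gene was given a symbol.

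Members, compared intervals and their order along the gene's strand were computed in Python (3.11.15) with pandas (2.3.3) and numpy (2.4.6). Wilson intervals came from scipy (1.17.1) and plots from matplotlib (3.10.9). The computation was tested on simulated lists. The 5'-most and 3'-most rows were ranked over all rows of a gene. The IDs named are the member farthest from another gene's interval, the widest (ties by distance), and the 2 nearest.

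The members, measures and alternatives were chosen with earlier results of these data known. With no value per sample, no test between groups and no depth could be had.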

Additional observations from a re-analysis of the deposited data

How the results depend on the processing

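No paired analysis was possible because the list gives positions alone, without a value for any sample, and no replicate could be left out. Differences, lone minus compared, were recomputed under 12 planned settings and 3 chosen after seeing the data (5'-most, interior, and IDs up to 60000). Of 102 such differences, 87 stayed within the 95% interval of the main one. The settings reuse many of the same intervals, so they are not independent repeats. Of the 102, 14 were differences in the grid share, whose main interval was wide, from -6.26 to 3.42 percentage points. The 95% interval combines the Wilson intervals of the shares, or the binomial intervals of the medians. For the median width it ran from -50 to -14.6 bp, so a difference of -25 bp counted as within. That was the value with widths up to 500 bp, no upper width limit, any step kept, 50 bp intervals removed, or nearby intervals joined. It was also -25 bp with shared intervals kept, against two-row genes, and with IDs up to 60000. Differences outside their interval are given below. The number of members, 3216, ran from 2778 to 3683 in 8 settings, all within 1.5 times. The cause was not tested, beyond the choice of intervals that each setting names.

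Against 3'-most intervals the median width differed by -75 bp (-50 in the main comparison), the 50 bp share turned to 0.40 percentage points (-2.30), widths over 500 bp to -4.87 (-2.54) and distance to -0.70 kb (-7.38). Against two-row genes the distance turned to 0.39 kb and the X difference was 1.13 points (4.48). Against 5'-most intervals the median width differed by 0 bp, the 50 bp share by -3.86, the 7-step share by 1.57 (3.05) and widths over 500 bp by 0.86 points, a turn. Against interior intervals the 50 bp share differed by -3.26 and X by 11.9 points, and distance by -12.4 kb. Joining intervals up to 100 bp apart gave -0.43 points for the 50 bp share, and keeping widths of any step -1.24 for widths over 500 bp. The differences in the share of IDs over 60000 and in the grid share stayed within their intervals throughout. The grid shares themselves were 2.02% and 8.21% after joining. They were 14.7% and 20.4% with shared intervals kept, where the neighbour can belong to a gene listed for the same interval. The list carries no depth, and its limits were not assessed.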
